A study of Mus musculus with 6 samples.

Results

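The 10 genes described here mark kidney fibroblasts, in the resting or in the activated state. They were examined in obstructed kidneys of mice with and without the microRNA gene Mir92b. The 10 genes were chosen by symbol from the table of 34714 genes, and all 10 were present and passed the filter on low counts, which left 18927 genes. Kidneys were taken 10 days after unilateral ureteral obstruction (UUO), in which the left ureter is ligated and the kidney scars. The 3 wild-type libraries came from C57BL/6J mice and the 3 knockout libraries from miR-92b-/- mice (C57BL/6JGpt- Mir-92bem22Cd549/Gpt), a global deletion carried by every cell type. All mice were male, 8 weeks old at randomisation, and both groups had the operation, so an unoperated level was not analysed here. The treatment protocol describes ligated kidneys as nonfibrotic, and the treatment label and the sample names, which name the obstruction operation, were followed here. Nothing in the labels states that each replicate is its own animal; if not, the p-values measure only the spread between these samples, which may be technical. Mir92b itself was not analysed here, so the deletion was not checked.

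Fibroblasts make the collagen-rich matrix of the kidney interstitium. After obstruction, resident fibroblasts and perivascular cells proliferate, and part of them become contractile, matrix-secreting myofibroblasts under signals that include TGF-β. Dpt and Pi16 mark resident fibroblasts of many organs, whereas Fap, Lrrc15, Cthrc1, Postn and Meox1 are known from activated fibroblasts. Thy1, Ncam1 and Cspg4 are surface molecules shared with other cells: T cells and neurons carry Thy1, nerves carry Ncam1, as do human natural killer cells, and pericytes carry Cspg4. In whole kidney, fewer cells of a type and less RNA per cell cannot be told apart.

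Because the deleted gene makes a microRNA that acts by pairing of its seed (bases 2 to 8) with 3' untranslated regions, the mature sequences that share its seed are shown first (RefSeq, GRCm38.p6), with the seed in capitals. Mir92b lies on chromosome 3, and the mature miR-92b-3p is encoded at 89227126 to 89227147 on the minus strand.
mmu-miR-92b-3p: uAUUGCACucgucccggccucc
mmu-miR-92a-3p: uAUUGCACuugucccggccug
mmu-miR-25-3p: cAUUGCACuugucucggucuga
mmu-miR-32-5p: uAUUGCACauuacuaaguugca
mmu-miR-363-3p: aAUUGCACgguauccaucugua
mmu-miR-367-3p: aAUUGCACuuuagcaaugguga
The longest annotated 3' untranslated region of each of the 10 genes was searched for the seed match GTGCAATA (8mer), for its first 7 letters (7mer-m8) and for its last 7 (7mer-A1). Postn held 1 match, of the 7mer-A1 type, at bases 555 to 561 of its 738-base region (chromosome 3, 54390854 to 54390860, plus strand, GRCm38). It is shown with its flanks and the match in capitals.
Postn site: ataagcttctTGCAATAcaaatgtttt
The other 9 genes had 0 matches of these 3 types, and Ncam1 and Postn each held 1 further match of the central 6 letters alone. Among 15384 tested genes with such a region, 13.4% had at least 1 match of the 3 types. A match describes the letters of this window and is no evidence of binding.

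Promoter windows (250 bases before to 50 after a start site) were found in the RefSeq table for 5 of the 10 genes. The windows of Postn, Dpt and Lrrc15 are shown because the activated marker Postn, the resident marker Dpt and the weakly expressed Lrrc15 have the results described below. Capitals mark matches on either strand to 4 motifs. One is the SMAD box, CAGAC. Another is the AP-1 site, TGANTCA. The third is the TEAD site, GGAATG, and the fourth the TATA box, TATAAA. The window of Postn is chr3:54360857-54361156, plus strand.
Postn promoter: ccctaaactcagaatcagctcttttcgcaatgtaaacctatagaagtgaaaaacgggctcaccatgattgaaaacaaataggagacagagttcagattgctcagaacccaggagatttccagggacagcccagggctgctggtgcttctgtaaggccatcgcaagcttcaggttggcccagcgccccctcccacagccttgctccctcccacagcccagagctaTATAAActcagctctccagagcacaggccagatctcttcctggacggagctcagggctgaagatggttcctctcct
The window of Dpt is chr1:164796413-164796712, plus strand.
Dpt promoter: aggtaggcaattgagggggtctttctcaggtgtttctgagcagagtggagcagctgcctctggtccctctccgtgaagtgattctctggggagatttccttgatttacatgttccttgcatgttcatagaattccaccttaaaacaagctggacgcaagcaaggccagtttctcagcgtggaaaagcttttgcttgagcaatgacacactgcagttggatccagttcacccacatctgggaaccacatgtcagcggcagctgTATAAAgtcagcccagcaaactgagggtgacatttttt
The window of Lrrc15 is chr16:30283205-30283504, minus strand.
Lrrc15 promoter: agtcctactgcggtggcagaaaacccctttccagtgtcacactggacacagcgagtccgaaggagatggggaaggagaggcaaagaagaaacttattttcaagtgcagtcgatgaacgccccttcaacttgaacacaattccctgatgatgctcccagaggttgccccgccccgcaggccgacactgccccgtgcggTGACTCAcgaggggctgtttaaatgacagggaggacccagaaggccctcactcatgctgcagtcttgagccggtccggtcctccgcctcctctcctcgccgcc
The Postn window had TATAAA with its first base 26 bases before the start site, a string present in 13.6% of the 32851 windows in the table. In the Dpt window the same string begins 13 bases after the start site. A second annotated Postn window further upstream (54359017 to 54359316) had 1 CAGAC box, as did the window of Pi16, and that of Cspg4 had 3; 49.6% of all windows have at least 1. Lrrc15 held 1 AP-1 match beginning 53 bases before its start site, where 7.81% of all windows have one. No TEAD string was found in these windows, and 14.7% of all windows have one.

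The libraries held 38738204 to 51932509 counts. Knockout replicate 3 and wild-type replicate 3 lay at opposite ends of the first principal component of log2 CPM (-57.1 and 51.2, with 38.1% of the variance), and wild-type replicate 1 at the end of the second (56.9). Wild-type replicate 3 had the highest summed level of 10 proximal tubule markers (17869 CPM, with 3064 to 9167 CPM in the other 5 libraries). Of that sum 12313 CPM came from Kap alone, which was at 1482 to 4836 CPM in the other 5 libraries. Knockout replicate 3 had the lowest sums of proximal tubule markers (3064 CPM) and of 8 distal nephron markers (947 CPM, with 1847 to 5013 CPM elsewhere). The kidney markers Lrp2, Umod and Aqp2 and the fibroblast markers Pdgfra, Pdgfrb, Dcn and Col1a1 were expressed in all 6 libraries. The median root mean square distance of log2 CPM to the other libraries was 0.723 for wild-type replicate 1 and 0.720 for knockout replicate 3. These values do not single out knockout replicate 3 from wild-type replicates 1 and 3. The fold change of each marker is also given without knockout replicate 3, as a description.

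Across the 10 markers the knockout mean was above the wild-type mean for every gene, but none of the 10 passed the test. At an adjusted p under 0.05 (edgeR quasi-likelihood test with Benjamini-Hochberg adjustment over all genes) 0 of 10 were called, and 0% of all 18927 genes were called. DESeq2 called 0 of the 10 and 0.254% of its genes, and limma-voom 0 of the 10 and 0.0159%. At an unadjusted edgeR p under 0.05 there were 2 of the 10, Dpt and Cspg4, against 7.90% of all genes. The fold change was above 0 for 10 of 10, where 47.7% of all genes lay above 0, and its median was 0.69 on the log2 scale, with -0.02 over all genes tested. Without knockout replicate 3 the median was 0.10 with 9 of 10 above 0 (47.2% of all genes), and without both libraries numbered 3 it was -0.11 with 5 of 10 above 0 (49.6% of all genes). Leaving out wild-type replicate 3 gave a median of 0.45 with 8 of 10 above 0 (50.7% of all genes). Leaving out wild-type replicate 1 gave 0.87 with 10 of 10 above 0 (48.7% of all genes). Knockout replicate 3 was the highest of the 6 libraries for 8 of the 10 genes, which held for 18.8% of all genes, and wild-type replicate 3 was the lowest for 8 of the 10, which held for 21.8%.

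**Figure D1:**
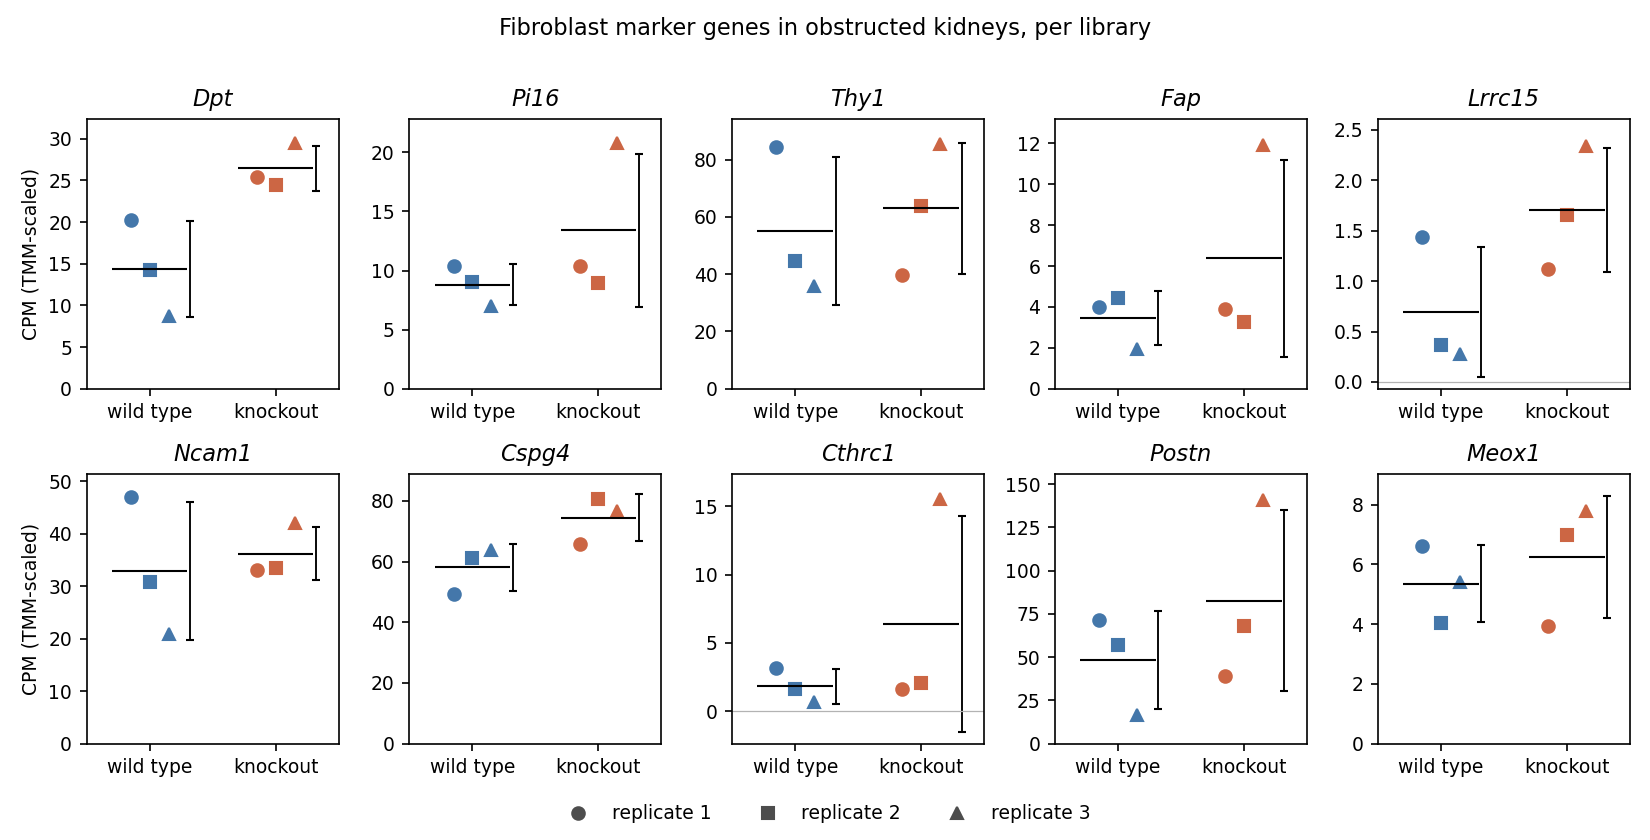
Each panel shows 1 gene, with CPM (counts scaled to library size, with TMM factors) on a linear vertical axis; points are libraries, the horizontal line is the group mean and the bar beside it is 1 SD (n = 3 per group). The triangles of replicate 3 are lowest in the wild type and highest in the knockout in most panels, and only Dpt and Cspg4 have groups that do not overlap.

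Dpt, dermatopontin, is a small matrix protein that binds collagen fibrils and the proteoglycan decorin. It was at 20.3, 14.2 and 8.74 CPM in the wild type and at 25.4, 24.4 and 29.5 CPM in the knockout. Every knockout library lay above every wild-type library, and the knockout libraries were the closer together. The means were 14.4 ± 5.77 CPM (SD, n = 3) and 26.4 ± 2.66 CPM, which is 1.84-fold. On the log2 scale the difference was 0.88 ± 0.28 (SE; edgeR adjusted p = 0.627, unadjusted 0.0154), and the exact two-sided permutation test gave p = 0.1, the smallest that 3 against 3 allows. It was 0.79 without knockout replicate 3, 0.62 without wild-type replicate 3 and 0.54 with both left out. Groups were free of overlap for 2 of the 10 markers and for 16.1% of all genes, so the share among the markers is near that of the table.

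Pi16, peptidase inhibitor 16, is a surface-anchored protein of fibroblasts in the adventitia around vessels. It stood at 10.4, 9.02 and 6.97 CPM in the wild type and at 10.4, 8.97 and 20.8 CPM in the knockout. Knockout replicate 2 was within the wild-type range, and knockout replicate 1 lay barely above its top (10.42 against 10.39 CPM). Knockout replicate 3 was 2.15 times the mean of knockout replicates 1 and 2. The log2 fold change of 0.61 ± 0.34 (SE; edgeR adjusted p = 0.641) became 0.14 without knockout replicate 3. A short antisense transcript overlaps 3.49% of the Pi16 exon bases, and whether counting used strand is not given in the sources used here.

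Among the surface molecules, Thy1 (CD90), a membrane-anchored glycoprotein, was the marker with the highest level per length. Its values were 84.4, 44.8 and 35.9 CPM in the wild type and 39.6, 63.7 and 85.5 CPM in the knockout. The groups covered nearly the same range, and the log2 fold change was 0.19 ± 0.37 (SE; edgeR adjusted p = 0.869). It turned to -0.09 without knockout replicate 3 and to -0.03 without wild-type replicate 3. T cells also carry Thy1, and the summed level of 10 T cell markers was 53.1 to 74.8 CPM in the wild type and 31.7 to 78.5 CPM in the knockout. The library with the highest Thy1, knockout replicate 3, had the lowest T cell sum (31.7 CPM), with Cd3g, a subunit of the T cell receptor complex, at 3.16 CPM there and 7.07 to 11.2 CPM elsewhere.

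Fap, fibroblast activation protein, is a cell-surface serine protease of the dipeptidyl peptidase family. It was at 3.97, 4.45 and 1.93 CPM in the wild type and 3.92, 3.28 and 11.9 CPM in the knockout. Knockout replicate 3 was 3.31 times the mean of the other 2 knockout libraries, which lay inside the wild-type range. The log2 fold change was 0.88 ± 0.54 (SE; edgeR adjusted p = 0.653), 0.06 without knockout replicate 3 and -0.22 without both libraries numbered 3. Of 7 relatives and partners of this protease family, 4 lay above 0 with a median of 0.05, and 0 were called; without knockout replicate 3 there were 3 with a median of -0.0050. Plau, the urokinase-type plasminogen activator, was at 379, 868 and 1098 CPM in the wild type and 745, 623 and 407 CPM in the knockout.

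Lrrc15, a leucine-rich repeat membrane protein induced by TGF-β in fibroblasts, was the weakest marker. Its counts were 61, 18 and 13 in the wild type and 49, 77 and 118 in the knockout. The counting interval of the smallest count alone ran from 6.92 to 22.2 (exact Poisson 95%, counting error only). As levels these were 1.43, 0.364 and 0.276 CPM and 1.12, 1.65 and 2.34 CPM, so that knockout replicate 1 lay below wild-type replicate 1. The log2 fold change was 1.31 ± 0.64 (SE; edgeR adjusted p = 0.627). It was 1.01 without knockout replicate 3 and 2.40 without wild-type replicate 1.

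Ncam1, the neural cell adhesion molecule, is carried by nerves and by part of the kidney's interstitial cells. Wild-type libraries were at 47.1, 30.8 and 21.0 CPM and knockout libraries at 33.2, 33.4 and 42.1 CPM. All 3 knockout values lay inside the wild-type range, with a log2 fold change of 0.14 ± 0.28 (SE; edgeR adjusted p = 0.877). It was 0.01 without knockout replicate 3, -0.10 without wild-type replicate 3 and -0.01 with the transcript length trend removed. The summed level of 12 Schwann cell and neural markers was 383 to 515 CPM in the wild type and 401 to 505 CPM in the knockout, with Sox10 at 0.205 to 0.541 CPM over all libraries. Mal, named after its values were seen, made up most of that sum in every library, at 302 to 439 CPM. The sum therefore mainly follows Mal. The 7 natural killer cell markers summed to 14.0 to 24.5 CPM and 7.86 to 20.3 CPM, with Ncr1 at 0.258 to 0.765 CPM. Of 10 partners of NCAM1 and enzymes of its polysialylation, 9 lay above 0 with a median of 0.26, and 0 were called; without knockout replicate 3 the median was 0.14. An antisense transcript overlaps 4.81% of the Ncam1 exon bases.

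Cspg4, the NG2 proteoglycan of pericytes and other perivascular cells, had the narrowest spread of the 10 in the wild type and the second narrowest, after Dpt, in the knockout. It measured 49.2, 61.3 and 63.6 CPM in the wild type and 65.7, 80.6 and 76.7 CPM in the knockout. The groups did not overlap, although the lowest knockout value was close to the highest wild-type value. The means of 58.1 ± 7.73 CPM (SD, n = 3) and 74.4 ± 7.73 CPM differed 1.28-fold, a log2 fold change of 0.36 ± 0.15 (SE; edgeR adjusted p = 0.627, unadjusted 0.0438) with an exact two-sided permutation p of 0.1. It was 0.33 without knockout replicate 3 and 0.41 without both libraries numbered 3, but 0.19 with the transcript length trend removed, where the groups overlapped. The longest coding transcript of Cspg4 has 8121 bases, more than that of the other 9 markers. The 12 pericyte and smooth muscle markers summed to 322 to 986 CPM in the wild type and 286 to 1465 CPM in the knockout. Ren1, which encodes renin, made up much of the widest sums, at 558, 124 and 56.7 CPM in the wild type and 17.0, 142 and 934 CPM in the knockout. The other 11 markers summed to 266 to 428 CPM and 269 to 531 CPM. The median log2 fold change of the 12 was 0.32 with 8 of 12 above 0 and 0 called, and without knockout replicate 3 it was -0.03 with 6 of 12 above 0. The log2 fold changes of the pericyte markers Kcnj8 and Notch3 were 0.48 ± 0.33 and 0.34 ± 0.23 (SE), and 0.25 and 0.23 without knockout replicate 3. Those of Rgs5, Abcc9 and Higd1b, other pericyte markers of the list named after their values were seen, were 0.19, -0.04 and -0.29.

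Among the secreted products of activated fibroblasts, Cthrc1, a collagen triple helix repeat protein, had the largest fitted difference of the 10 and the least even values. The wild-type libraries were at 3.15, 1.62 and 0.659 CPM and the knockout libraries at 1.60, 2.04 and 15.5 CPM. One library, knockout replicate 3, held 782 counts and was 8.54 times the mean of the other 2 knockout libraries (70 and 95 counts), both of which lay within the wild-type range. The log2 fold change was 1.82 ± 0.95 (SE; edgeR adjusted p = 0.638). It was 0.01 without knockout replicate 3 and -0.39 without both libraries numbered 3.

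Postn, periostin, is a matricellular protein of the fasciclin family that binds integrins and promotes collagen crosslinking. It was at 71.5, 57.1 and 16.4 CPM in the wild type and 39.2, 68.1 and 141 CPM in the knockout. The lowest and the highest library were those numbered 3, an 8.56-fold range, and the other 4 interleaved. The log2 fold change was 0.78 ± 0.60 (SE; edgeR adjusted p = 0.698), with 0.15 without knockout replicate 3 and -0.26 without both libraries numbered 3. Of 9 periostin partners and relatives, 8 lay above 0 with a median of 0.36 and 0 called, and without knockout replicate 3 there were 7 with a median of 0.12. Integrin chain Itgb5 was at 192, 201 and 198 CPM in the wild type and 270, 319 and 304 CPM in the knockout, without overlap (log2 fold change 0.60 ± 0.14 SE, edgeR adjusted p = 0.627). Its relative Itgb3 was at 0.93 ± 0.36, and at 0.45 without knockout replicate 3.

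Meox1, a homeobox transcription factor linked to fibroblast activation, differed little between the groups. Its values were 6.61, 4.04 and 5.42 CPM in the wild type and 3.92, 7.00 and 7.80 CPM in the knockout. The lowest and the highest value were both in the knockout, and the log2 fold change was 0.22 ± 0.32 (SE; edgeR adjusted p = 0.828). It was 0.03 without knockout replicate 3. Of 17 related and mesenchymal transcription factors, 13 lay above 0 with a median of 0.26 and 0 called. Without knockout replicate 3 their count above 0 was 4 of 17 and their median -0.16. Prrx1, a homeobox factor of mesenchyme, was at 0.67 ± 0.33 with all libraries and 0.34 without knockout replicate 3.

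**Figure D2:**
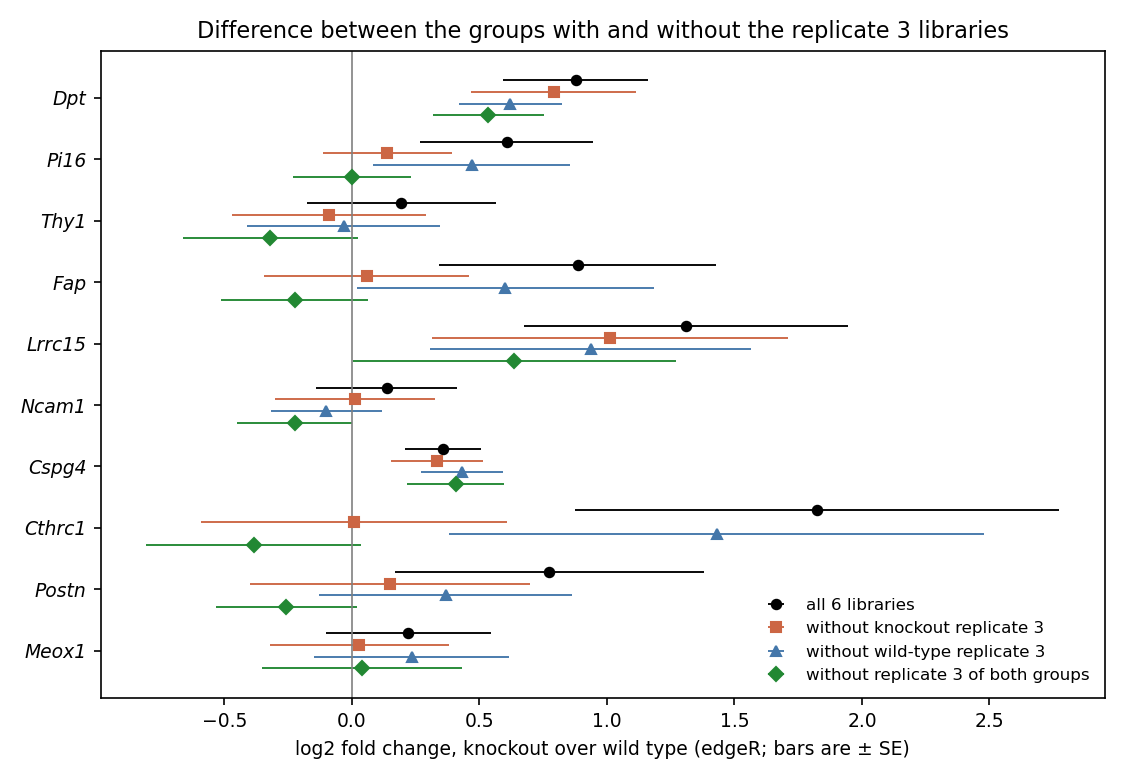
The horizontal axis is the edgeR log2 fold change (knockout over wild type) with its SE, for each gene and for 4 sets of libraries. Dpt, Lrrc15, Cspg4, Pi16 and Meox1 lie above 0 in all 4 sets, although Pi16 and Meox1 come as low as 0.00043 and 0.03. Thy1, Fap, Ncam1, Cthrc1 and Postn lie below 0 without both libraries numbered 3.

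Spread within a group was wide for these genes. The median SD of log2 CPM was 0.62 in the wild type and 0.54 in the knockout over the 10 markers, and 0.29 and 0.20 over all genes tested. In the knockout it ran from 0.14 for Dpt and 0.15 for Cspg4 to 1.00 for Fap and 1.78 for Cthrc1. In the wild type, Lrrc15, Postn and Cthrc1 had the widest spread, at 1.19, 1.14 and 1.10.

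Levels of different genes were compared per kilobase of the longest coding transcript. In the wild type the order was Thy1 (31.7 CPM per kb), Postn (15.1), Dpt (8.35), Cspg4 (7.15), Ncam1 (5.02), Meox1 (2.40), Pi16 (2.20), Cthrc1 (1.55), Fap (1.25) and Lrrc15 (0.13). The ranges over the 3 wild-type libraries overlapped between all neighbours in this order except Ncam1 and Meox1, and Fap and Lrrc15. In the knockout the first 5 kept their places, and Cthrc1 stood sixth at 5.48 CPM per kb through the 13.3 of replicate 3, with 1.37 and 1.75 in the other 2 libraries.

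**Figure D3:**
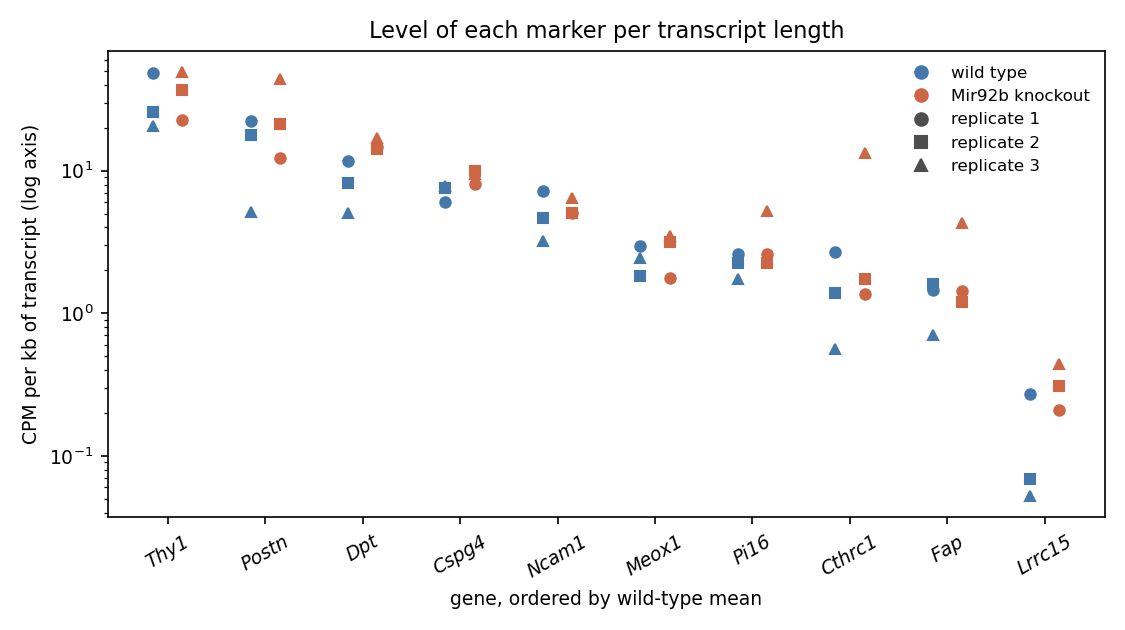
The vertical axis is CPM per kb of transcript on a log scale, the genes are ordered by their wild-type mean, and each point is a library. The markers span from 0.13 for Lrrc15 to 31.7 for Thy1 in the wild-type means, and the knockout triangle of Cthrc1 stands apart from the other knockout points.

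Ratios within a library do not depend on how libraries are scaled, and were taken to Dpt as the resident marker, a choice made after its values were seen and given as a description. Dpt itself was higher in every knockout library, which lowers ratios to it there. Postn over Dpt was 3.53, 4.02 and 1.88 in the wild type and 1.54, 2.79 and 4.78 in the knockout. Fap over Dpt was 0.196, 0.313 and 0.221 in the wild type and 0.154, 0.134 and 0.404 in the knockout. For Cthrc1 over Dpt the values were 0.155, 0.114 and 0.0754, and then 0.0627, 0.0835 and 0.527. In all 3 ratios knockout replicate 3 was the highest of the 6 libraries, and knockout replicate 1 lay below every wild-type library. Pi16 over Dpt was 0.513, 0.635 and 0.798 in the wild type and 0.409, 0.367 and 0.706 in the knockout, so that knockout replicates 1 and 2 lay below every wild-type library. Lrrc15 over Dpt was 0.0708, 0.0256 and 0.0316, and then 0.0439, 0.0677 and 0.0795, with knockout replicate 1 inside the wild-type range. Taken to Pdgfra instead, knockout replicate 3 was again the highest library for Postn (0.974), Fap (0.0824) and Cthrc1 (0.107), but knockout replicate 1 lay inside the wild-type range for Postn (0.388, range 0.273 to 0.684), Fap (0.0388, range 0.0321 to 0.0486), Cthrc1 (0.0158, range 0.0109 to 0.0301) and Pi16 (0.103, range 0.0984 to 0.116). The low position of that library therefore depends on the denominator. Knockout replicate 2 lay below every wild-type library for Fap (0.0170), Cthrc1 (0.0106) and Pi16 (0.0465) over Pdgfra, for Cthrc1 by little. Pdgfra itself was highest in that library (193 CPM, with 60.3 to 105 CPM in the wild type), which lowers ratios to it there.

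**Figure D4:**
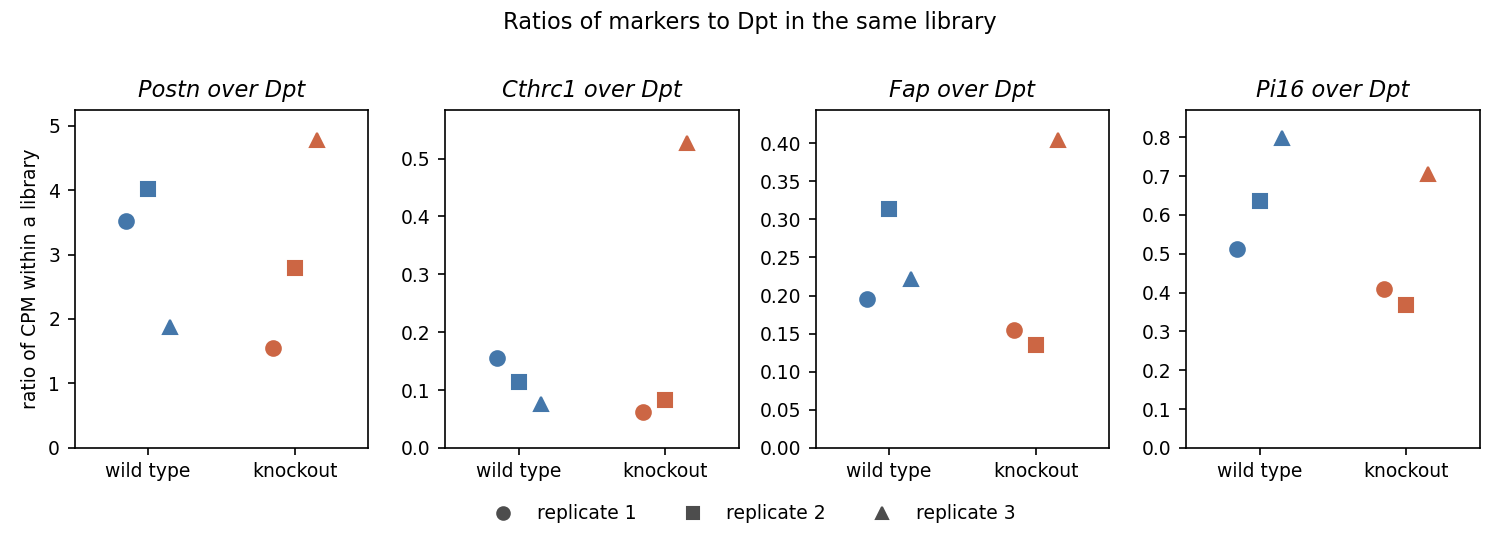
Each panel gives the CPM of a marker divided by that of Dpt in the same library, on a linear axis from 0, with 1 point per library. Knockout replicate 3 is the highest point for Postn, Cthrc1 and Fap over Dpt, and wild-type replicate 3 for Pi16 over Dpt (0.798).

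The wider lists of fibroblast genes had the same sign. Of 18 other resident fibroblast genes, 16 had a positive fold change, the median on the log2 scale was 0.63, and 0 were called; without knockout replicate 3 there were 13 of 18 and the median was 0.31. The examples with the smallest p were Col15a1, a collagen of basement membrane zones, at 1.04 ± 0.25 (SE), Pdgfra, a PDGF receptor, at 0.77 ± 0.28 and Col14a1 at 0.78 ± 0.28. Of 29 other activated fibroblast genes, 28 lay above 0 with a median of 0.71 and 0 called, and without knockout replicate 3 there were 25 of 29 with a median of 0.36. Col12a1, a fibril-associated collagen, was at 126, 122 and 90.4 CPM in the wild type and 197, 295 and 369 CPM in the knockout, without overlap (1.35 ± 0.25, edgeR adjusted p = 0.627). Sfrp1, a secreted Wnt modulator, was at 1.06 ± 0.23, and Ccn4, a matricellular protein, at 0.95 ± 0.22. Without knockout replicate 3 these 6 genes, picked by their small p in the same libraries, were at 1.11 for Col15a1, 0.78 for Pdgfra, 0.73 for Col14a1, 1.13 for Col12a1, 0.78 for Sfrp1 and 0.88 for Ccn4. Other genes of the lists rested on that library more, such as Fbln2, a matrix glycoprotein (1.20 with it and -0.04 without it), Lum, a collagen-binding proteoglycan (1.15 and 0.24), and Sfrp2, a secreted Wnt modulator (0.71 and -0.55), all named after their values were seen.

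Markers of other cells varied between libraries as well, and the sign of several lists turned without knockout replicate 3. The 7 endothelial markers summed to 382 to 728 CPM in the wild type and 341 to 971 CPM in the knockout, highest in knockout replicate 3; 6 of 7 lay above 0 with a median of 0.33, but 2 of 7 with a median of -0.03 without that library. The 7 macrophage markers summed to 1161 to 1258 CPM and 1418 to 1737 CPM, with 7 of 7 above 0 and a median of 0.32, and 6 of 7 with 0.40 without it. Mesothelial markers summed to 82.0 to 170 CPM and 127 to 144 CPM, with Msln at 5.68 to 21.8 CPM. Gpm6a, named after its values were seen, was the largest part of the sum in every library, at 28.5 to 108 CPM. Of the mesothelial markers, 2 of 5 tested lay above 0 (median -0.02), and 3 of 5 without knockout replicate 3 (0.05). Adipocyte markers summed to 65.4 to 108 CPM and 50.7 to 313 CPM, highest in knockout replicate 1. Adipoq was at 19.4 CPM there, at 0.0429 and 0.516 CPM in knockout replicates 2 and 3, and at 0.0425 to 4.59 CPM in the wild type. Fabp4 was the largest part of the adipocyte sum in every library, at 42.4 to 133 CPM. In knockout replicate 1 Cfd, named after its values were seen, was nearly level with it (both at 124 CPM). Of the adipocyte markers, 5 of 6 tested lay above 0 (median 1.91). Without knockout replicate 3 there were 6 of 6 (2.44), a set that still holds knockout replicate 1. Skeletal muscle markers summed to 6.91 to 9.12 CPM and 1.74 to 2.05 CPM. Of 7 tested, 0 lay above 0 (median -2.24), also without knockout replicate 3 (-2.15). Of the epithelial lists, 2 of 10 proximal tubule markers and 0 of 8 distal nephron markers lay above 0, with medians of -0.24 and -0.19. Without knockout replicate 3 these were 5 of 10 and 4 of 8, with medians of 0.11 and -0.04. For T cells the count was 4 of 10 with a median of -0.18, and 6 of 10 with 0.19 without that library. Natural killer cells had 1 of 7 with -0.20, and 4 of 7 with 0.05 without it. Schwann and neural cells had 8 of 11 tested with 0.24, and 8 of 11 with 0.34 without it. No gene of these lists was called, and no listed marker was at 0 in every library. The skeletal muscle markers Myh1 and Myh4 were at 0 in all 3 knockout libraries. In the wild type they were at 0.564 to 0.607 CPM and at 1.07 to 1.43 CPM. The part of these cells in the fibroblast marker values was not tested.

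**Figure D5:**
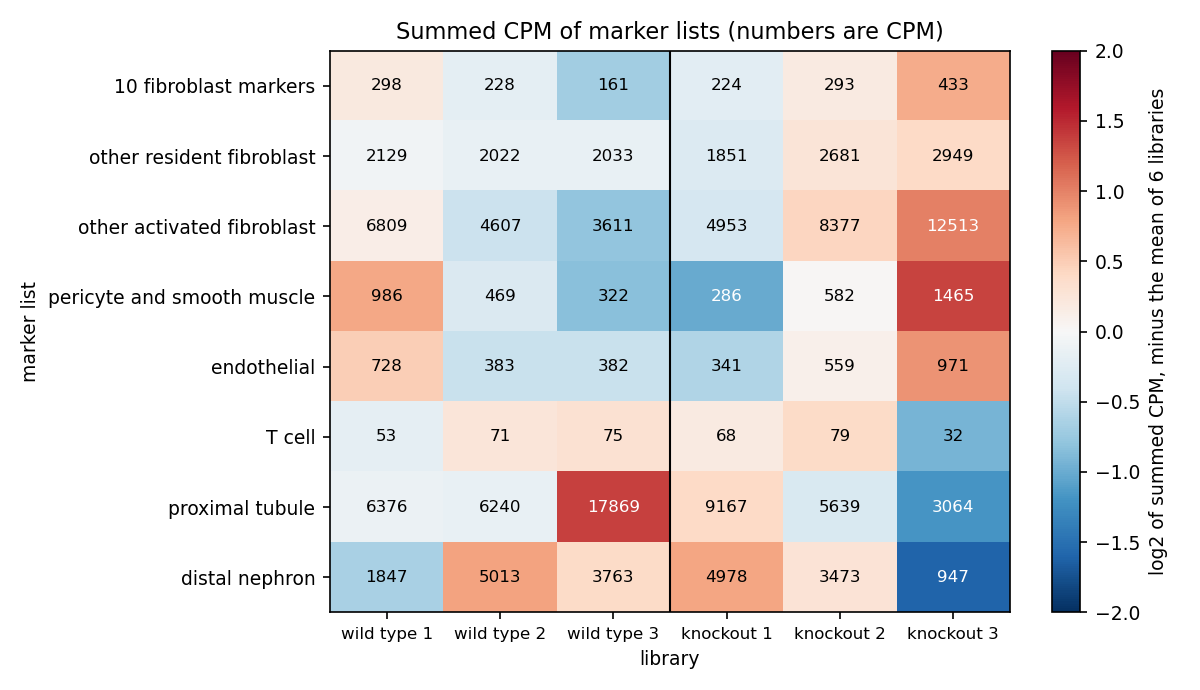
Columns are the 6 libraries and rows are marker lists; the printed number is the summed CPM and the colour its log2 value minus the mean over the 6 libraries. The 10 fibroblast markers run from 161 CPM in wild-type replicate 3 to 433 CPM in knockout replicate 3, and in knockout replicate 3 the pericyte and endothelial rows are also at their highest and the nephron rows at their lowest.

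As a description of likeness, the Pearson correlation of log2 CPM over the 6 libraries was taken between markers, whose points share the same libraries and scaling. It was 0.970 between Pi16 and Cthrc1, 0.968 between Pi16 and Fap, 0.951 between Fap and Cthrc1 and 0.935 between Dpt and Lrrc15. Cspg4 stood apart, with values from -0.171 to Ncam1 to 0.365 to Dpt. Among 14262 genes with a mean of at least 1 CPM, the pattern most like that of Postn was Dact1 (0.996), that of Fap was F13a1 (0.996) and that of Dpt was Gng7 (0.994). With 6 points such values are common: 68 genes for Meox1 and up to 743 for Cspg4 exceeded 0.9.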

How the data were processed

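RNA was sequenced from 6 obstructed mouse kidneys, with an mRNA library kit per the labels' protocols. The authors deposited raw read counts per gene symbol, without normalization. The submitters' processing notes name GRCm38, also called mm10. Aligner, counter and use of strand: not given in the sources used here. Columns were matched to libraries by the sample descriptions, and the titles gave groups and replicate numbers. Library totals were 38738204 to 51932509 counts.

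Genes were filtered with filterByExpr (18927 of 34714 kept, with 99.96% of counts) and scaled by TMM. The comparison used edgeR 4.0.16 (quasi-likelihood F test) in R 4.3.3 (robust = TRUE, group as the only term), with Benjamini-Hochberg adjustment over all genes and a call at adjusted p under 0.05. The biological coefficient of variation was 26.9%. The SE was obtained as the fold change (log2) over the square root of F. Log2 CPM used a prior count of 2. The pipeline was also run on simulated counts, drawn independently for each gene and library. These held no shifts of cell markers between libraries, so that run says nothing about such shifts here. Alternatives were other scalings, DESeq2 1.42.0, limma-voom (limma 3.58.1), other filters, robust fitting off, the replicate block, a loess offset for transcript length (GENCODE M21, found for 89.7% of genes) and libraries left out.

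The 10 markers and the lists were chosen with earlier results of these data known. All 10 markers are named. From each other list up to 3 genes of lowest p, averaging 1 CPM or more, may be named, besides markers given as levels. For likeness, the genes with the highest correlation were taken, leaving out predicted genes. Sequences are from RefSeq (GRCm38.p6) and GENCODE M21 transcripts.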

Additional observations from a re-analysis of the deposited data

How the results depend on the processing

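In all 17 alternatives 0 of the 10 markers were called over all genes. The number of genes called over the table was 0 with edgeR and 53 with DESeq2, 3 with limma-voom, 2 with no filter, 1 with the replicate block and 1 without both libraries numbered 3; with 1 library left out it ran from 0 to 1. The median log2 fold change of the markers ran from 0.10 to 0.87 with 1 library left out, was -0.11 without both libraries numbered 3 (5 of 10 above 0), 0.35 with limma-voom, 0.59 with the replicate block and 0.63 or above in the other alternatives. The number of markers whose groups did not overlap was 1 (Dpt) with the length trend removed, where 15.1% of all genes did not overlap. It ran from 2 to 4 with 1 library left out, where 20.1% to 32.1% of all genes did not overlap. It was 4 without wild-type replicate 1 and without knockout replicate 1. It was 3 without both libraries numbered 3 (Dpt and Cspg4 higher, Fap lower in the knockout), where 49.2% of all genes did not overlap. Signs that changed were those of Thy1 (from -0.090 to 0.64 with 1 library left out), Ncam1 (from -0.10 to 0.48, and -0.010 with the length trend removed), and, without both libraries numbered 3, Thy1 (-0.32), Fap (-0.22), Cthrc1 (-0.39), Postn (-0.26) and Ncam1 (-0.22); the cause was not tested. Dpt ranged from 0.54 to 1.20 over the alternatives, Cspg4 from 0.19 to 0.44 and Lrrc15 from 0.64 to 2.40, all above 0. Pi16 (from 0.00043 to 0.82) and Meox1 (from 0.030 to 0.48) also stayed above 0.

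The labels do not state whether the replicate numbers pair the samples. The correlations of deviations from the group means for numbers 1, 2 and 3 were -0.28, 0.18 and -0.29. Wild-type replicate 1 was most like knockout replicate 3 (0.37). Deviations from a mean of 3 libraries sum to 0 within a group, so these values are linked and cannot decide whether the numbers pair samples. With the replicate block 0 of the 10 markers were called and 1 gene was called over the table. The weakest marker, Lrrc15, rested on as few as 13 counts, which limits its precision.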
